A study of Mus musculus with 86 samples.

Results

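The Lin28, Sall4 and Myc family loci are 7 genes, Lin28a, Lin28b, Sall4, Sall1, Myc, Mycn and Mycl, of 21887 protein-coding mouse genes, each taken with the 50 kb on either side of its gene body. Every SOX2 or CTCF peak within that distance was kept, which gave 375 peaks, 232 of SOX2 and 143 of CTCF, from 8 peak lists. The lists come from mouse embryonic stem cells of strain 129S5/SvEvBrd, cultured in serum with leukemia inhibitory factor on gelatin. The mitotic cells were treated with nocodazole, a drug that blocks spindle assembly, at 100 ng/ml for 6 h and collected by shaking rounded cells off the dish, and the asynchronous cells were an untreated cycling culture of the same kind. Chromatin immunoprecipitation with sequencing was done for SOX2 (antibody AF2018) and for CTCF (antibody ab70303), with 2 mitotic and 2 asynchronous libraries each, out of 86 libraries in the series. Libraries of histone marks (52) and inputs (26) are not analysed here. Nothing in the labels says that the replicates were separate cultures, so their spread may be technical. Peak lists carry no expression levels, so the cell type was taken from the labels.

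LIN28A and LIN28B are RNA-binding proteins that hold back the maturation of the let-7 microRNAs, in part by recruiting terminal uridylyltransferases to the let-7 precursors. The let-7 microRNAs in turn repress many growth genes, the Lin28 and Myc genes among them. SALL4 and SALL1 are zinc finger transcription factors that bind the nucleosome remodelling and deacetylase complex NuRD, and SALL4 belongs to the pluripotency network of embryonic stem cells. MYC, MYCN and MYCL are helix-loop-helix proteins that pair with MAX on E box sequences and drive growth and biosynthesis genes. SOX2, an HMG box protein, binds DNA beside OCT4 in embryonic stem cells, and CTCF is a zinc finger protein found at chromatin loop anchors and insulators. Comparing mitotic with asynchronous cells asks at which of these sites either factor is still detected on mitotic chromosomes.

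The genes lie apart from each other, on 6 chromosomes (GRCm38, the assembly of mm10). Lin28a is at chr4:134003330-134019196, Lin28b at chr10:45376617-45486314, Sall4 at chr2:168748332-168767201, Sall1 at chr8:89027242-89044162, Myc at chr15:61985341-61990361, Mycn at chr12:12936093-12941836, and Mycl, on the same chromosome as Lin28a, at chr4:122995588-123002490. The windows of Sall1, Myc and Mycn held no other protein-coding gene. Those of the other 4 also held Hmgn2, Dhdds and Crybg2 beside Lin28a, Bves beside Lin28b, Atp9a beside Sall4, and Mfsd2a and Trit1 beside Mycl, so some peaks counted here are as close or closer to a neighbour.

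Promoter sequences, each 250 bases before and 50 after the listed start of transcription, were read from RefSeq (GRCm38.p6) for 5 of the 7 genes, Lin28a, Lin28b, Sall1, Mycn and Mycl. They are shown because a SOX2 region covers the start in all 5, and for 4 of them that region was also called in a mitotic library. A mitotic SOX2 peak reached the printed bases only at Lin28a and Mycl. Capitals mark matches, on either strand, to ATTGT (or ACAAT, the core that HMG box proteins such as SOX2 bind), ATGCNAAT (an octamer form bound by OCT4), CNAGNNGGC (a CTCF core) and CACGTG (the E box of MYC and MAX).
Lin28a, chr4:134018767-134019066, minus strand: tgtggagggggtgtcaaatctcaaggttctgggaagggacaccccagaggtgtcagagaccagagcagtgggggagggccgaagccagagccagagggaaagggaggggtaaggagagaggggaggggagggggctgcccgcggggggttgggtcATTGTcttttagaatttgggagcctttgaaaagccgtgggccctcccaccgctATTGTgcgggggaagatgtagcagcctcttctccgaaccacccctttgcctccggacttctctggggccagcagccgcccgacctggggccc
Lin28b, chr10:45470152-45470451, minus strand: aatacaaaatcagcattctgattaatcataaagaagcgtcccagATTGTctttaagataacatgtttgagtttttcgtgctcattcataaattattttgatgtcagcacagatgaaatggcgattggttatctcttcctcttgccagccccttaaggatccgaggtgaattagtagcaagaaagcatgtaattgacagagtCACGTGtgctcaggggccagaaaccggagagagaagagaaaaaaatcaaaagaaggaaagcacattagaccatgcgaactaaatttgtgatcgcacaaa
Sall1, start inside the gene body, chr8:89042813-89043112, minus strand: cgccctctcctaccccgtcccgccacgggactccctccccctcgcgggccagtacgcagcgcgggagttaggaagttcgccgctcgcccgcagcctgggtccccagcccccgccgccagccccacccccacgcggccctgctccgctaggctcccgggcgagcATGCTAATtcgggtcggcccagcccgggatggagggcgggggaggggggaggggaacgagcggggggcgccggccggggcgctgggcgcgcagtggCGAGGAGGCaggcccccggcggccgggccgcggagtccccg
Mycn, chr12:12941787-12942086, minus strand: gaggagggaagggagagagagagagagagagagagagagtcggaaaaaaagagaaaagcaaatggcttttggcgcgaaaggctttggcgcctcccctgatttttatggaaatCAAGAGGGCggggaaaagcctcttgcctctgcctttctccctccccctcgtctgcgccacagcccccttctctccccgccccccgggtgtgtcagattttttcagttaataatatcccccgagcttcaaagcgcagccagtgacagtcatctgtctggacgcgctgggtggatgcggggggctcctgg
Mycl, chr4:122995681-122995980, plus strand: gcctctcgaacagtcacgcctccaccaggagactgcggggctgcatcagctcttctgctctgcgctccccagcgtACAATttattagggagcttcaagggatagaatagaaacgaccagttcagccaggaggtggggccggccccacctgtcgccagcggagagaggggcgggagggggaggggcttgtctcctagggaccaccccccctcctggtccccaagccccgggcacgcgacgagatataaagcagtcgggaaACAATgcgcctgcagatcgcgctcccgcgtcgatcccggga

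The ATTGT core stood in the Lin28a promoter at 2 places, in the Lin28b promoter at 1 and in the Mycl promoter, as ACAAT, at 2. Sall1 has 3 listed starts, and the windows of those not printed hold ATTGT at −84 and at 16 from their own starts. ATTGT is a common word, present in 31.0% of 32851 RefSeq promoters of the same length. A CTCF core, present in 20.8% of promoters, stood in the Mycn window and in the Sall1 window shown. The octamer form, present in 3.15%, was found in the Sall1 window, and the E box, present in 7.15%, in the Lin28b window. Matches did not overlap each other, and a match is a string of letters, not a measured site.

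The lists differ widely in length, which touches each comparison between conditions. The SOX2 lists held 1976 and 408 peaks in mitotic cells, against 90266 and 63504 in asynchronous cells. The CTCF lists held 20142 and 15338 peaks in mitotic cells, against 68328 and 67995 in asynchronous cells. The number of mapped reads is unknown. A floor of the local background per 100 bp was solved from the lists. It is the lowest local background among the peaks solved, divided by the shortest peak length. For SOX2 this floor was 2.62 and 1.64 reads in mitotic against 2.48 and 1.61 in asynchronous libraries. For CTCF it was 3.62 and 3.77 in mitotic against 3.36 and 3.71 in asynchronous libraries. The floor was close between conditions of the same factor and replicate number. It rests on extreme peaks, so it does not measure the depth or the typical background of a library. The weakest SOX2 peak in a list had a −log10 p of 4.75 and 5.69 in mitotic libraries against 2.99 and 3.20 in asynchronous libraries, so the mitotic lists asked for stronger peaks.

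SOX2 peaks near the 7 genes numbered 11 and 2 in the mitotic libraries, against 122 and 97 in the asynchronous libraries. CTCF peaks numbered 13 and 8 in mitotic cells, against 57 and 65 in asynchronous cells. The groups did not overlap for either factor, nor for any of the 7 genes taken singly. How many of all genes separate likewise was not counted. The mitotic lists are shorter throughout, so the separation is not shown to be particular to these 7 genes. The mean was 6.5 ± 6.36 mitotic and 109.5 ± 17.7 asynchronous SOX2 peaks (SD, n = 2 each), and 10.5 ± 3.54 mitotic and 61 ± 5.66 asynchronous CTCF peaks (SD, n = 2 each). By a two-sided exact permutation test p was 0.33 for both factors, the smallest value that 2 libraries against 2 can give. Mitotic minus asynchronous means differed by −103 SOX2 and −50.5 CTCF peaks, by −46.5 and −23.5 with a fold of at least 5, and by −51.5 and −31.5 at 10 kb, and for CTCF by −83 at 100 kb, settings that count fewer or more peaks by construction. All 34 mitotic peaks, 13 of SOX2 and 21 of CTCF, overlapped a peak of the same factor in an asynchronous library. No site near these genes was thus called in mitosis alone. The share of all mitotic peaks with such an overlap was not computed, and the asynchronous lists are far longer.

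Gene by gene, the SOX2 peaks were most numerous at Sall1, with 1 and 1 in the mitotic libraries against 26 and 25 in the asynchronous libraries. Mycn had 2 and 0 mitotic against 23 and 18 asynchronous peaks, and Sall4 had 3 and 0 against 18 and 15. Lin28a had 3 and 1 mitotic against 13 and 14 asynchronous peaks. The fewest mitotic peaks were at Myc, which had 0 and 0 against 16 and 8 in asynchronous cells. Lin28b had 1 and 0 mitotic against 14 and 6 asynchronous peaks, and Mycl had 1 and 0 against 12 and 11. The asynchronous replicates were close at Sall1, Lin28a and Mycl and stood furthest apart, in proportion, at Lin28b and Myc.

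The order differed for CTCF. Sall4 had 2 and 1 mitotic against 17 and 17 asynchronous peaks, the highest asynchronous numbers of the 7. Lin28b had 3 and 3 mitotic against 6 and 7 asynchronous peaks, the smallest gap between the conditions. Lin28a had 2 and 1 mitotic against 8 and 15 asynchronous peaks, Mycl 3 and 1 against 8 and 9, and Mycn 2 and 1 against 6 and 5. Sall1 had 1 and 0 mitotic against 8 and 5 asynchronous peaks, and Myc 0 and 1 against 4 and 7.

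**Figure D1:**
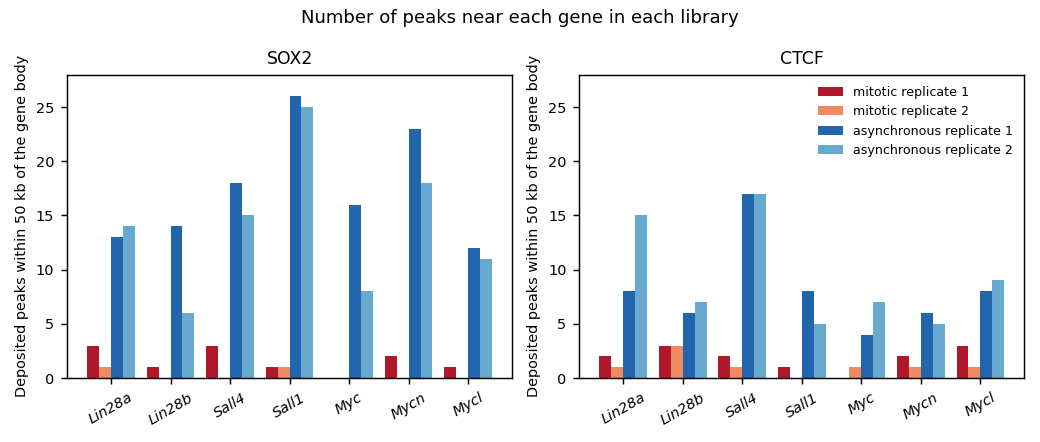
Number of deposited SOX2 peaks (left) and CTCF peaks (right) within 50 kb of each gene body, with 1 bar per library, mitotic (red tones) left of asynchronous (blue tones). At each of the 7 genes both mitotic bars are lower than both asynchronous bars, and Myc has no SOX2 bar in mitosis. The same separation was not counted over all genes.

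Peaks of both asynchronous libraries that overlapped were merged into regions, and those found in each of the 2 libraries were kept. A region counted as called in a mitotic library where at least 1 bp of it overlapped a peak there. Of 126 merged SOX2 regions near the genes 73 were in both asynchronous libraries, 45 in replicate 1 alone and 8 in replicate 2 alone. Of 65 merged CTCF regions 49 were in both, 3 in replicate 1 alone and 13 in replicate 2 alone. More SOX2 regions were found within 50 kb of Sall1 (16 regions) than of 98.0% of protein-coding genes, and Sall4 and Mycn (14 each) exceeded 96.5%, where the median gene had 4. Lin28a (10 regions) exceeded 88.0%, Myc and Mycl (7 each) 72.1%, and Lin28b (5), whose gene body alone is 109698 bp long, 54.9%. For CTCF the median gene had 6 regions, Sall4 (15) exceeded 94.4% of genes, and the other 6 genes held 4 to 8 regions and exceeded 33.5% to 64.5%.

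Of the 73 SOX2 regions, 7 (9.59%, 95% Wilson interval 4.72% to 18.5%) were called in mitotic replicate 1 and 2 (2.74%, 0.755% to 9.45%) in mitotic replicate 2. Over all 51672 SOX2 regions of the genome the same libraries called 3.37% and 0.755%. Both mitotic libraries called 2 member regions, against 0.675% of all regions, and at least 1 library called 7, against 3.45% of all. The mean share over both libraries was 6.16 ± 4.84% near the 7 genes and 2.06 ± 1.85% over all regions (SD, n = 2). That mean rests on which library is taken: without replicate 2 it was 9.59% and without replicate 1 it was 2.74%. It was 3.57% when regions of either asynchronous library were counted, 3.90% when libraries of the same replicate number were compared, and 3.69% without asynchronous replicate 2. Intervals cover counting error only. They take regions as independent, though the regions lie together at 7 chosen loci, so they are no test against the share over all regions.

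CTCF regions were called more often. Of 49, mitotic replicate 1 called 13 (26.5%, 16.2% to 40.3%) and replicate 2 called 8 (16.3%, 8.51% to 29.0%), where the same libraries called 33% and 25.4% of all 57992 CTCF regions. Both libraries called 7, and at least 1 called 14, against 24.5% and 34% of all regions. The mean share was 21.4 ± 7.22% near the 7 genes and 29.2 ± 5.36% over all regions (SD, n = 2). The mean CTCF share was 15.3 percentage points above the SOX2 share, with p = 0.33 by a two-sided exact permutation test, again the smallest value possible. With a fold enrichment of at least 5 asked of every peak, the CTCF share was 12.5% and the difference 7.37 points. The difference was 23.2 points at a distance of 100 kb, 9.99 points without CTCF asynchronous replicate 1 and 10.2 points without CTCF mitotic replicate 1.

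Strength in asynchronous cells was scored by ranking fold enrichment within each asynchronous list, as the percentile averaged over both lists. The fold is the authors' ratio of summit coverage to local background. The median strength was 72.7 for the SOX2 regions near the 7 genes and 61.5 for all SOX2 regions. For CTCF it was 47.4 near the 7 genes and 57.8 for all CTCF regions. The share called near the genes thus stands beside regions that are stronger than the genome's for SOX2 and weaker for CTCF, and the part of strength in those shares was not tested. All 7 called SOX2 regions had a strength of at least 80: 5 of the 18 in the class from 90 to 100 were called, where 9.27% of all regions in that class were, and 2 of 9 in the class from 80 to 90, where 5.90% were. None of the 46 SOX2 regions below 80 was called, where 0.588% to 4.09% of all regions in each such class were. Calls below 80 were thus rare over the genome too. For CTCF 3 of 3 in the top class were called, where 90.9% of all were, and 5 of 6 in the next, where 78.3% were. The other 6 called CTCF regions were spread over weaker classes, down to a region at the Sall1 start in the lowest. In the classes below 80, 2.06% to 58.6% of all CTCF regions were called.

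**Figure D2:**
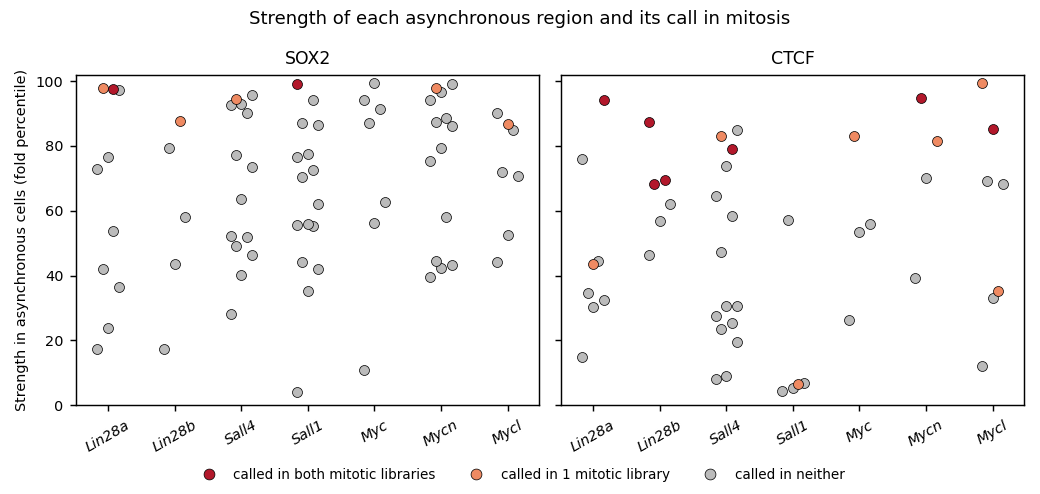
Strength of each region in asynchronous cells (vertical axis, percentile of the fold enrichment averaged over both asynchronous lists) by gene, for 73 SOX2 regions (left) and 49 CTCF regions (right). Each point is a region, dark red where both mitotic libraries called it, orange where 1 did and grey where neither did. Coloured SOX2 points lie above 80, grey points lie among them at the same height, and coloured CTCF points reach lower.

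At Lin28a the strongest mitotic SOX2 signal near any gene start of the 7 was found. The region over the start, chr4:134016034-134020078, reached a fold of 7.73 and 5.31 in mitotic cells, against 19.2 and 19.7 in asynchronous cells. The fold and −log10 p of each summit were solved for its read coverage, which was 49 and 35 reads in mitotic libraries against 246 and 166 reads in asynchronous libraries, over local backgrounds of 5.47 and 5.78 against 11.9 and 7.49 reads. Mitotic libraries were the lower ones in both replicates, and the region was called in both. It is among 1702 SOX2 regions at least as strong, of which 6.70% were called in both mitotic replicates.

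Summits at the Lin28a start fell within a stretch of less than 100 bases. With the start base at chr4:134018816 counted as 0 and negative positions before it, the main mitotic summits stood at −10 and −71 and the asynchronous summits at −87 and −79. In the promoter printed above, the ATTGT cores run from −95 to −91 and from −42 to −38. The centre of the first core was 83 and 22 bp from the mitotic summits, and 6 and 14 bp from the asynchronous summits. The second core was 30 and 31 bp from the mitotic and 47 and 39 bp from the asynchronous summits. Mitotic replicate 1 held a further SOX2 peak in the same region, with a fold of 4.02, 625 bp from the start.

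A SOX2 region inside Lin28a, chr4:134011345-134012707, was as strong in asynchronous cells but weaker in mitosis. Its fold was 3.39 in mitotic replicate 1, with no call in mitotic replicate 2, against 19.7 and 20.9 in asynchronous cells, and its summit coverage was 24 reads against 217 and 122 reads. Another region of like strength, chr4:133956050-133956910 and 7.83 kb from Hmgn2, had folds of 19.9 and 18.2 in asynchronous cells and was called in neither mitotic library. The other 7 SOX2 regions near Lin28a had asynchronous folds between 2 and 8.11 and were not called in mitosis. So of 3 Lin28a regions of nearly equal asynchronous fold, the 1 over the start was called in both mitotic replicates, the intragenic 1 in a single library and the distal 1 in none. In that same order their asynchronous summit coverage fell, with 246 and 166, 217 and 122, and 196 and 95 reads. Their widths fell too, at 4045, 1363 and 861 bp. The part of coverage, width or position in the calls was not tested.

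CTCF was called near Lin28a in both mitotic libraries at chr4:134035670-134036403, 16.5 kb from the gene on the side of its start. Its fold was 9.70 and 9.08 in mitotic cells against 20.6 and 11.6 in asynchronous cells, and its summit coverage 101 and 79 against 154 and 148 reads. A SOX2 region of asynchronous folds 8.11 and 5.74 overlaps it and was not called in mitosis. A CTCF region 0.299 kb from Dhdds, chr4:134001256-134002181, had a fold of 2.57 in mitotic replicate 1 only, against 4.70 and 4.95 in asynchronous cells. The other 6 CTCF regions near Lin28a, with asynchronous folds of 3 to 10.0, were called in neither mitotic library.

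Lin28b, the paralogue of Lin28a, had 5 SOX2 regions, and its strongest covers the listed start. That region, chr10:45469129-45470511, had a fold of 3.84 in mitotic replicate 1 alone, against 10.5 and 8.70 in asynchronous cells. Its summit coverage was 24 reads in mitotic replicate 1, against 97 and 61 reads in asynchronous libraries. The mitotic summit stood 300 bp from the start inside the gene, and the mitotic peak did not reach the 300 bases printed above, where both asynchronous lists have a peak. The next strongest, chr10:45445933-45446626 in the gene body, had asynchronous folds of 12.7 and 5.42 and was not called, nor were the remaining 3.

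Near Lin28b 3 CTCF regions were called in both mitotic replicates, the largest number of any of the 7 genes. The first, chr10:45373152-45373910, is 2.71 kb from Lin28b and 0.668 kb from Bves, which encodes a membrane protein of muscle and epithelium. It had folds of 2.71 and 3.97 in mitotic against 9.77 and 13.7 in asynchronous cells, and summit coverages of 34 and 34 against 142 and 133 reads. The second lies inside Bves at chr10:45344302-45344950, with folds of 5.96 and 5.22 in mitotic against 6.87 and 9.38 in asynchronous cells and coverages of 50 and 45 against 87 and 77 reads. The third covers the higher-coordinate end of Lin28b at chr10:45485532-45486504, with folds of 4.07 and 3.63 in mitotic against 9.23 and 6.61 in asynchronous cells. Mitotic and asynchronous values lie closest together at the region inside Bves. The other 3 CTCF regions, with asynchronous folds of 4.81 to 8.37, were not called in mitosis.

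**Figure D3:**
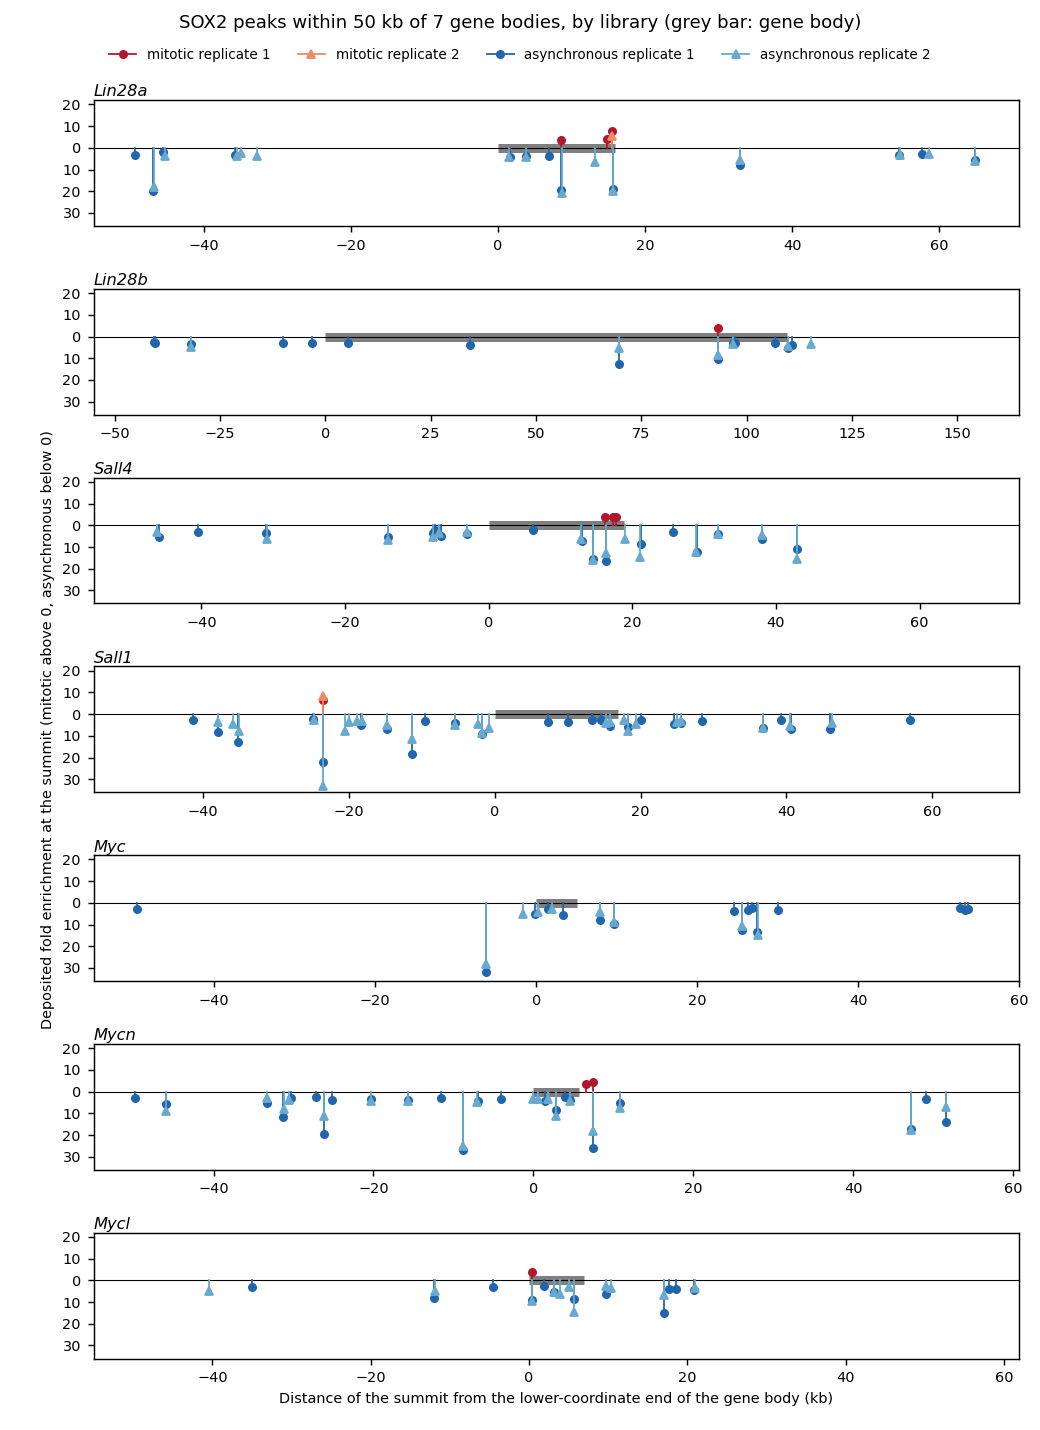
SOX2 peaks near each gene, 1 panel per gene: horizontal axis, distance of the summit from the lower-coordinate end of the gene body in kb; vertical axis, deposited fold enrichment, mitotic drawn upward and asynchronous downward; grey bar, gene body. Peaks in mitotic replicate 2 appear only at the Lin28a start, with a fold of 5.31, and below Sall1, with a fold of 8.16, and the tallest asynchronous peak below Myc has no mitotic counterpart.

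Sall4 had 14 SOX2 regions, 5 of them with a strength above 90. The region called in mitosis, chr2:168763954-168767408, covers the higher-coordinate end of the gene body. Mitotic replicate 1 held 3 peaks in it, with folds of 3.71, 3.93 and 3.62, and mitotic replicate 2 held none, while the asynchronous folds were 16.4 and 12.8. The highest of the 3 mitotic peaks had a summit coverage of 28 reads, against 200 and 90 reads in asynchronous libraries, and its summit lay up to 995 bp from the asynchronous summits, the widest such gap of the 7 called SOX2 regions. The directly adjoining region, chr2:168761608-168763953, was the strongest near Sall4, with folds of 15.5 and 16.1, and was called in neither mitotic library. The other 12 regions, with asynchronous folds of 2.88 to 15.6, were also not called.

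CTCF near Sall4 was called in both mitotic replicates at a single region, which covers the higher-coordinate end of the neighbouring gene body. This region, chr2:168740964-168743500, is 4.83 kb from Sall4 and overlaps Atp9a, which encodes a phospholipid flippase. Its fold was 13.4 and 6.08 in mitotic cells, against 9.97 and 9.10 in asynchronous cells. The mitotic replicates thus lie on either side of the asynchronous values, and coverage was lower in mitosis in both replicates, with 119 and 75 against 163 and 149 reads. A mitotic replicate 1 fold above both asynchronous folds was seen in 5.28% of the 14210 CTCF regions that both mitotic replicates called. The summit of mitotic replicate 1 was 512 bp outside Atp9a. A second region, chr2:168738672-168739485 inside Atp9a, had a fold of 2.80 in mitotic replicate 1 only, against 9.74 and 10.8 in asynchronous cells. The strongest CTCF region near Sall4, chr2:168719550-168720396, had asynchronous folds of 11.2 and 10.2 and was not called, although 75.2% of the 9054 CTCF regions at least as strong were called in both mitotic replicates.

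Sall1 held the only distal SOX2 region of the 7 loci that was called in mitosis. It lies 19.5 kb from the gene body, at chr8:89002808-89007709, in a window with no other protein-coding gene. Its fold was 6.35 and 8.16 in mitotic cells, against 22.1 and 33.3 in asynchronous cells, and its summit coverage 67 and 31 reads against 401 and 239 reads. It was called in both mitotic replicates, with mitotic summits within 95 bp of the asynchronous summits. Of 641 SOX2 regions at least as strong, 10.3% were called in both mitotic replicates and 22.6% in at least 1. A weak CTCF region overlaps it, with asynchronous folds of 2.61 and 2.67 and no mitotic call.

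The remaining 15 SOX2 regions near Sall1 were called in neither mitotic library. The strongest of them, chr8:89015150-89016939, had asynchronous folds of 18.5 and 11.6. The region over the Sall1 start printed above, chr8:89042108-89043973, had asynchronous folds of 5.35 and 4.03. Over this same start a weak CTCF region, chr8:89042757-89043335, had asynchronous folds of 2.94 and 2.08, with 42 and 37 reads at the summits. A peak of mitotic replicate 1 only, with a fold of 2.85 and 29 reads, overlapped the edge of the region. Its summit lay outside the region, up to 376 bp from the asynchronous summits, so the mitotic and asynchronous values are of different places. The strength of the region was 6.54, the lowest of all called regions near the 7 genes. The strongest CTCF region near Sall1, chr8:89046195-89047393, had asynchronous folds of 5.87 and 6.94 and was not called.

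**Figure D4:**
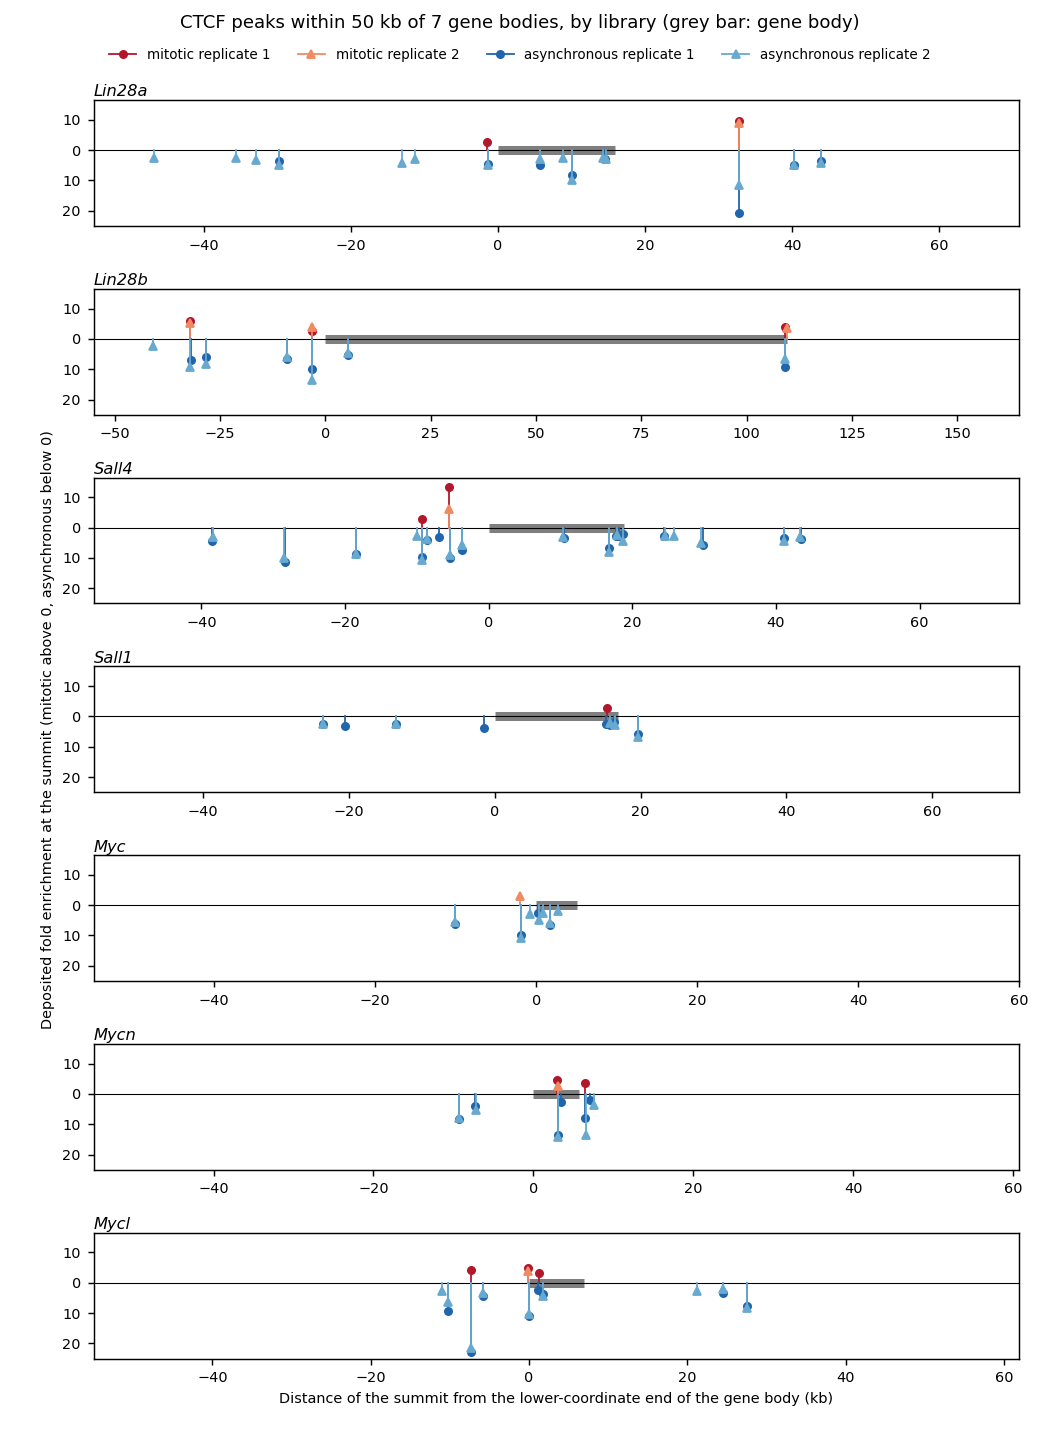
CTCF peaks near each gene, drawn as for SOX2: distance of the summit from the lower-coordinate end of the gene body in kb against deposited fold enrichment, mitotic upward and asynchronous downward. The tallest mitotic peak, with a fold of 13.4, stands left of Sall4 at the higher-coordinate end of Atp9a. Lin28b has 3 sites with peaks of both mitotic replicates.

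Myc held the strongest SOX2 region of the 7 loci by percentile and was the only 1 of the 7 genes with no SOX2 call in either mitotic library. The region, chr15:61978543-61979856, lies 5.49 kb from the lower-coordinate end of the gene, with asynchronous folds of 31.7 and 28.1 and summit coverages of 245 and 139 reads. Its strength was 99.4, and only 320 SOX2 regions of the genome were at least as strong, of which 30.3% were called in at least 1 mitotic library and 14.7% in both. Most SOX2 regions of this strength were, like it, called in neither. Of the other 6 SOX2 regions, 2 at 20.1 and 21.6 kb on the higher-coordinate side had asynchronous folds of 10.8 to 14.9, and the region over the lower-coordinate end of Myc, chr15:61984058-61986162, had 4.97 and 4.24.

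CTCF near Myc was called in mitotic replicate 2 alone, at chr15:61983078-61983779, 1.56 kb from the gene. The fold was 3.18 in mitotic replicate 2, against 9.83 and 10.8 in asynchronous cells, and the summit coverage 27 reads against 125 and 114 reads. It is the only region of the 14 called CTCF regions with a call in replicate 2 and not in replicate 1. The other 3 CTCF regions, with asynchronous folds of 2.69 to 6.38, were not called.

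Mycn had 14 SOX2 regions, of which 1, over the gene start, was called. That region, chr12:12941034-12944361, had a fold of 4.64 in mitotic replicate 1, with no call in mitotic replicate 2, against 25.8 and 18.0 in asynchronous cells. Summit coverage was 29 reads in mitotic replicate 1 against 239 and 164 reads in asynchronous libraries. The mitotic summit was 1691 bp before the listed start and within 8 bp of the asynchronous summits, and a second mitotic peak with a fold of 3.50 stood 806 bp before it, so neither mitotic peak reached the 300 bases printed above. The strongest SOX2 region near Mycn, chr12:12926400-12928490, lies 7.60 kb below the gene, had folds of 27.1 and 25.3 in asynchronous cells and was called in neither mitotic library. Another 2 with a strength above 90, at 25.6 and 40.7 kb, were not called either.

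Of 4 CTCF regions near Mycn, 2 were called. The strongest, chr12:12938457-12940291 inside the gene body, was called in both mitotic replicates with folds of 4.44 and 2.57, against 13.5 and 14.1 in asynchronous cells. Coverage there was 37 and 29 reads in mitotic against 146 and 132 reads in asynchronous libraries. The region over the start, chr12:12941671-12943950, had a fold of 3.64 in mitotic replicate 1 only, against 8.04 and 13.5 in asynchronous cells. SOX2 and CTCF regions overlap at both of these places and at the 2 CTCF regions that were not called.

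Mycl encodes the family member first known from small cell lung cancer. Its start lies in a SOX2 region, chr4:122995306-122996388, with a fold of 3.67 in mitotic replicate 1 alone, against 8.81 and 9.34 in asynchronous cells. The summit coverage was 25 reads in mitotic replicate 1 against 96 and 69 reads in asynchronous libraries. Asynchronous summits stood 3 bp before and 3 bp after the start, the mitotic summit 61 bp after it. In the promoter printed above, the nearer ACAAT runs from 9 to 13 bases after the start, with its centre 14 and 8 bp from the asynchronous summits. The strongest SOX2 region of Mycl, chr4:123000355-123001606 in the gene body, had asynchronous folds of 8.48 and 14.6 and was not called, and neither were the other 5.

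CTCF was called at 3 regions near Mycl, with both mitotic libraries calling the region over the start. That region, chr4:122995201-122996281, had folds of 4.89 and 3.86 in mitotic against 11.1 and 10.3 in asynchronous cells, with 42 and 33 against 192 and 188 reads. At 6.61 kb from the gene lies the strongest CTCF region of all 7 loci, chr4:122987468-122988978, with a fold of 4.09 in mitotic replicate 1 only against 22.8 and 21.5 in asynchronous cells and 34 against 271 and 236 reads. Of the 346 CTCF regions of the genome that are at least as strong, 93.9% were called in both mitotic replicates, so this region, missing from replicate 2, is among the minority of its strength. The third, chr4:122996559-122997505, had a fold of 3.15 in mitotic replicate 1 only, against 3.82 and 4.45 in asynchronous cells. Its mitotic summit lay up to 466 bp from the asynchronous summits.

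**Figure D5:**
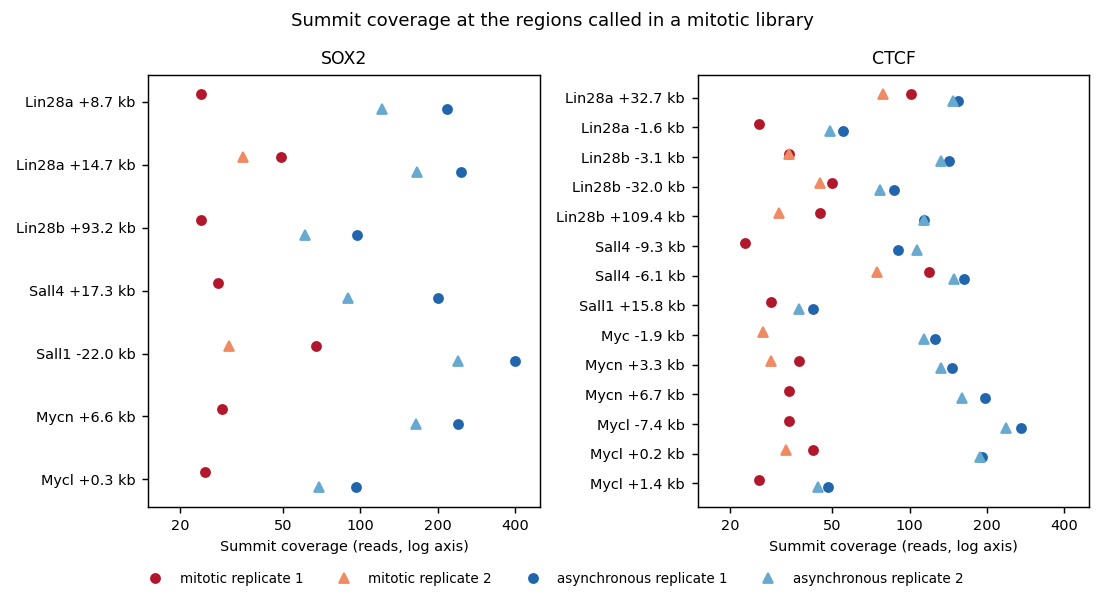
Summit coverage in reads (log axis) at the 7 SOX2 regions (left) and 14 CTCF regions (right) called in a mitotic library, labelled by the distance of the region's middle from the lower-coordinate end of the gene body. Mitotic points (red tones) lie left of the asynchronous points (blue tones) in each row, and SOX2 points of mitotic replicate 2 exist only at the Lin28a start (35 reads) and at the distal Sall1 region (31 reads).

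Across the called regions, coverage at the summit was lower in each mitotic library than in either asynchronous library. The 5 SOX2 regions called in mitotic replicate 1 alone had 24 to 29 reads there, where the least that any peak of that list had was 18 reads. The 2 regions called in both mitotic replicates had 49 and 67 reads in replicate 1. For CTCF the 7 regions called in a single mitotic library had 23 to 34 reads, where the lowest summit coverage among up to 2000 peaks solved was 21 reads in mitotic replicate 1 and 22 reads in replicate 2. These coverages come from libraries whose read totals are unknown, so they show what was called and are not a measured change in binding.

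SOX2 regions over promoters of the RefSeq table, those of neighbouring genes included, made up 13 of the 73, and 5 of the 13 were called in at least 1 mitotic library, where 13.7% of all 6468 such regions were. Calls are of whole regions, so a mitotic peak need not reach the promoter itself. Away from listed promoters 2 of 60 were called, where 1.98% of all regions were. For CTCF 4 of 6 regions over a listed promoter were called, where 43.8% of all 4080 were, and 10 of 43 elsewhere, where 33.2% of all were. SOX2 and CTCF regions overlapped often near these genes. A CTCF region overlapped 19 of the 73 SOX2 regions (26.0%), where 20.3% of all SOX2 regions have such an overlap, and a SOX2 region overlapped 22 of the 49 CTCF regions (44.9%), where 18.3% of all do. Of the 7 SOX2 regions called in mitosis 5 overlapped a CTCF region, where 51.2% of all called SOX2 regions do, and of the 66 not called 14 did, where 19.2% of all such regions do, so the higher share among called regions is seen over the genome too. These shares are descriptions of the regions and carry no test.

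The genes of like pattern were those whose peak numbers within 50 kb in the 8 lists had the smallest summed absolute difference from the member's. For Mycl this was Sirt1, which differed by 2 peaks in all, followed by Ly6g6f and Clgn with 3 each. Lin28b was nearest to Adgrg3 (2 peaks), Ddah1 (3) and Slc9b2 (4), and Myc to Daam1, Spry1 and Gm38821 (4 each). Sall4 was nearest to Acap1 (5), Mrps18b and Pcbp1 (6 each), and Mycn to Adgrl3 (6), Ccs and Ckap2l (7 each). Sall1 was nearest to Zic5 (6), Zic2 and Meis2 (9 each), of which Zic5 and Zic2 are neighbours, and Lin28a to the neighbours Zbtb8a and Zbtb8os (8 each) and to M6pr (9). No member was among the nearest 3 genes of another.

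Genes whose products act with the members were counted in the same way. The list of the LIN28 and let-7 pathway holds 25 genes, among them the uridylyltransferases Tut4 and Tut7, the nuclease Dis3l2 and 12 let-7 family microRNA genes. SOX2 regions lay near 24 of the 25; for 1 of them both mitotic replicates called a region, for 10 a single replicate did, and for 13 neither did. The gene with both calls was Mirlet7i, where the region chr10:122984893-122986889 had asynchronous folds of 8.35 and 8.58. The list of the SALL family and NuRD holds 16 genes, and for 4 of them both mitotic replicates called a SOX2 region, for 1 of them 1 library did and for 11 neither did. These 4 were Mbd3, the methyl-CpG-binding domain subunit, Hdac1, a histone deacetylase, Mta1 and Rbbp4, also NuRD subunits. None of the 18 genes of the MYC and MAX network had a SOX2 region called in both mitotic replicates, 5 had a call in 1 library and 13 had none. Pvt1, on this list, shares part of its window with Myc. Of 18766 protein-coding genes with a SOX2 region, 4.28% had one called in both mitotic replicates and 20.5% in at least 1. The lists are short, and differences between them were not tested.

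Over all 59 partner genes 58 had a SOX2 region, and for 5 (8.62%) a region was called in both mitotic replicates, where 4.28% of the 18766 protein-coding genes with a SOX2 region had such a call. With the 16 that had a call in 1 library only, 21 (36.2%) had a call in at least 1, where 20.5% of those protein-coding genes did. The partner genes include microRNA genes, unlike the protein-coding genes they stand beside. Neighbouring microRNA genes can count the same region more than once, so these shares are not like for like. The 58 partner genes also had 466 SOX2 regions, summed gene by gene, where the median of all 21887 protein-coding genes was 4. A gene with more regions has more that can be called, and the part of region number in these shares was not tested. For CTCF 57 had a region and for 40 (70.2%) both mitotic replicates called a region, where 72.5% of 19195 protein-coding genes did. A call in at least 1 was found for 47 (82.5%), where 82% of those genes had it. Both CTCF shares are near those of all genes. The strongest CTCF regions called in both libraries were near Mirlet7g (asynchronous folds 27.2 and 34.5), Sall2 (26.0 and 25.1), Chd4 (20.5 and 24.5) and Mbd3 (25.7 and 19.2). Next by strength were Mirlet7a-1, Mirlet7d and Mirlet7f-1, which share a region, Rbbp4, Dis3l2, Tut7, Mirlet7b and Mirlet7c-2, which share a region, Trrap, Trim71 and Mlxipl. Among the 7 members themselves, 2 of 7 had a SOX2 region called in both mitotic replicates, Lin28a and Sall1, and 5 of 7 had a CTCF region called in both, Lin28a, Lin28b, Sall4, Mycn and Mycl. These tallies depend on the settings: the SOX2 call at Sall1 and the CTCF call at Lin28a lie beyond 10 kb, the CTCF count is 0 at Mycn and Mycl with a fold of at least 5, 0 at Mycn with a −log10 q of at least 5, 0 at Sall4 by nearest protein-coding gene, and 1 at Sall1 at 100 kb.

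The limit of 50 kb decides which regions are counted. The outermost SOX2 region inside it lay 48.4 kb from Lin28a, with asynchronous folds of 5.59 and 6.29, and the nearest outside it 51.4 kb from Sall1, with 3.42 and 4.40. For CTCF the outermost inside lay 38.2 kb from Sall4, with asynchronous folds of 4.38 and 3.09, and the nearest outside 50.7 kb from Mycl, with 6.35 and 13.1.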

How the data were processed

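SOX2 and CTCF peak lists of 8 libraries were used, with groups read from the sample titles and the treatment label. The submitters' processing notes name mm10 as the build and list MACS2 2.1.1.20160309, SAMtools, BWA 0.7.17 and CASAVA 1.4; options, filters and the control used by the peak caller were not given in the sources. The authors deposited a separate narrowPeak list for each library, without pooling replicates. Each deposited peak has a fold, the ratio of summit coverage to local background, a −log10 p-value for the summit with its −log10 q-value, an integer score and a summit offset. The lowest −log10 q of the lists was 1.31 to 1.48. Folds are the authors' values, set by each list's own background, and a ratio of folds between lists is not a change in binding.

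Distances were taken from peak to gene body with the RefSeq gene table (GRCm38.p6). Summit coverage was solved from fold and −log10 p under MACS2's Poisson model. It came out whole, within 0.005 in −log10 p, for all 375 member peaks and for 100% of up to 2000 peaks per library. On 2000 simulated peaks 100% were recovered, and region calls were tested against bedtools with 0 differences. Differences between groups were tested by exact permutation (two-sided), and shares have 95% Wilson intervals. No value was tested per region, since lists called separately hold calls and not counts.

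All 7 members are named. Single regions named are, per gene and factor, the strongest, those called in mitosis (for CTCF at most 3) and that over the start; other regions were named after their values were seen. The members and the partner lists were chosen with earlier results of these data known. Alternatives covered peak thresholds, overlap rules, distances of 10 and 100 kb, the nearest gene, regions of either asynchronous library, the replicate block and each library left out. Python 3.11.15, numpy 2.4.6, scipy 1.17.1 and matplotlib 3.10.9 were used.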

Additional observations from a re-analysis of the deposited data

How the results depend on the processing

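Peak numbers, mean shares and their difference were recomputed under 18 alternatives, 8 of which leave out a library in turn. Of 66 such values 0 reversed direction, and among the mean shares 1 moved by more than the spread between replicates: that of CTCF was 12.5% with a fold of at least 5, where the CTCF minus SOX2 difference was 7.37 points. Leaving out 1 library gave mitotic minus asynchronous differences of −115.5 to −90.5 SOX2 peaks and −54.5 to −46.5 CTCF peaks, mean shares called of 2.74% to 9.59% for SOX2 and 16.2% to 26.5% for CTCF, and a CTCF minus SOX2 difference of 9.99 to 20.4 points. Counts per gene of regions called in both mitotic libraries moved in 12 of 154 values. At 10 kb they were 0 for SOX2 at Sall1 and 0 for CTCF at Lin28a. At 100 kb the CTCF counts were 5 at Lin28a, 4 at Sall4, 1 at Sall1 and 4 at Mycl. With a fold of at least 5 they were 1 at Lin28b, 0 at Mycn and 0 at Mycl, and with a −log10 q of at least 5 the Mycn count was 0. By nearest protein-coding gene they were 1 at Lin28b and 0 at Sall4. A wider or narrower distance counts more or fewer regions by construction; for the other changes the cause was not tested. A count in both libraries was not recomputed with a mitotic library left out.

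With the replicate block, which compares libraries of the same number, the shares were 3.90% for SOX2 and 20.2% for CTCF, their difference 16.3 points, and the peak differences −103 and −50.5 with p = 0.5 by an exact permutation test, the smallest that 2 pairs allow. The labels give replicate numbers and do not say that libraries of the same number were handled together. The correlation of their deviations in peak number was −0.0230 over 3946 genes for SOX2 and −0.0107 over 15835 genes for CTCF. A correlation of peak numbers over genes cannot show whether libraries were paired, so pairing stays undecided. At an equal −log10 p limit in all lists of a factor (5.69 for SOX2, 3.97 for CTCF), chosen after seeing the data, the shares were 6.52% and 22.3%. Regions hold what passed the caller, so a site with no mitotic call may still be bound below the threshold. With 2 libraries a group, no permutation p can pass 0.05.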
